A study of Drosophila melanogaster with 21 samples.

Results

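Syp, Sxl, pum, chinmo, br, lola, fru, zfh1 and ct are 9 Drosophila regulators of transcription or of RNA. They were chosen by their measured signal: each started low in both conditions of 1 of 3 time courses (experiment 3) and recovered, with fru listed as the exception that does not. Each probeset whose only annotated gene symbol was one of the 9 was taken, which gave 41 of the 18769 probesets and 9 of the 11981 named genes on the array. Of the 41, 30 passed the filter on low values (a signal of at least 100 on at least 3 of 20 arrays): 11 of 15 for lola, 5 of 7 for fru, 3 of 5 for br, 2 of 3 each for chinmo, ct and Sxl, 2 of 2 each for Syp and pum, and the 1 for zfh1. The other 11 probesets, which lay near background, are not described further, and 1 more probeset was annotated to lola together with another gene and fell outside the rule.

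Total RNA of S2 cells, a haemocyte-like line from Drosophila embryos, was hybridised to Affymetrix Drosophila Genome 2 arrays after RNA interference. The interfering RNA, given by calcium phosphate transfection, was against CoVa, a subunit of cytochrome c oxidase in the mitochondrial electron transport chain, or against GFP, which these cells lack and which served as the control. Experiment 1 (5 arrays) covered 48 and 168 hr after transfection in both conditions plus 1 array of untransfected cells at 48 hr, and experiments 2 and 3 (8 arrays each) covered the times 72, 96, 120 and 168 hr for the pair of conditions. Every group was thus the same cell line in Schneider's medium, and a condition, time and experiment was a single array. The p-values below measure the spread between these arrays, whose number limits the precision, and in bulk RNA fewer cells with a transcript cannot be told apart from less of it per cell.

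Syp, Sxl and pum encode RNA-binding proteins. Syp, together with its counterpart Imp, sets the temporal identity of neural progenitors in the fly, partly through chinmo; Sxl is the switch of female sex determination and acts on splicing and translation; pum represses translation of the messages it binds. chinmo, br, lola and fru encode BTB zinc finger transcription factors with roles in temporal identity, the response to the steroid ecdysone, axon guidance and sexual behaviour. zfh1 encodes a zinc finger and homeodomain repressor expressed in haemocyte and muscle precursors, and ct a homeodomain factor that patterns sense organs and the wing margin.

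Experiment 3 stood apart before any comparison of conditions. The knockdown was weaker in it: the CoVa probeset, annotated as COX5A, fell by 24.8% to 45.6% relative to the matched GFP array, against 58.4% to 91.0% in experiment 2 and 72.9% at 168 hr of experiment 1, and at 48 hr of experiment 1 it was higher after CoVa RNAi (8364 against 7336). The array medians lay between 84.8 and 94.4 in experiment 3 and between 67.5 and 81.5 in experiment 2. For actin the ratio of 5′ to 3′ signal was 0.58 to 0.62 on the 4 arrays at 72 and 96 hr of experiment 3. It was 0.46 to 0.66 over all 21 arrays. For 18S rRNA it was 0.55 to 1.01 on those 4 arrays and 0.49 to 0.69 on the 4 later arrays of experiment 3. The 18S ratio was 0.14 to 0.48 in experiment 2 and 0.18 to 0.54 in experiment 1. In experiments 3, 2 and 1 the GAPDH ratio was 0.73 to 0.80, 0.62 to 0.73 and 0.65 to 0.78. The eIF-4a ratio was 0.33 to 0.46, 0.37 to 0.50 and 0.38 to 0.51. Among 10 plasmatocyte markers, srp (1031 to 3069), ush (1064 to 1895) and crq (656 to 1358) reached 100 on all 20 RNAi arrays, while Hml, NimC1 and Sr-CI never reached 100. The summed signal of those 10 markers was 3863 to 5878 on the 4 early arrays of experiment 3 (6 of 10 at 100 or above) and 6976 to 8824 in experiment 2 (7 of 10). The same sums for 7 neuron markers were 528 to 685 and 713 to 946, for 5 lamellocyte markers 6157 to 8187 and 7367 to 8927, for 4 glia markers 3898 to 6619 and 5431 to 7206, and for 3 germ line markers 4859 to 5550 and 3383 to 3887. For 4 crystal cell markers they were 247 to 302 and 224 to 302, for 5 fat body markers 277 to 373 and 236 to 315, and for 2 muscle markers 152 to 231 and 62.0 to 155. The lower neuron sum lay with elav, which read 467 (GFP) and 417 (CoVa) at 72 hr of experiment 2 and 48.8 and 63.3 in experiment 3, while the other kept neuron markers, brp, futsch and Rdl, were higher in experiment 3. Of the lamellocyte and glia markers, mys, cher, moody and loco were lower at 72 hr of experiment 3 than of experiment 2. ItgaPS4, PPO3 and Gli, the other kept genes of these lists, were higher, each in both conditions. The defining genes lz, atilla, nSyb, repo and vas were under 100 on all 20 arrays. The part of these differences in the results below was not tested.

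The early levels in experiment 3 chose the genes, so they are given as a description, with no test. Signals are linear intensities, and those under 100 are near background, so that a fold against such a value is given as at least the fold against 100. For Syp, the signals at 72, 96, 120 and 168 hr were 36.7, 133, 156 and 1093 after GFP RNAi and 70.5, 114, 124 and 790.0 after CoVa RNAi in experiment 3. In experiment 2 they were 1783, 1504, 1687 and 1874 after GFP RNAi and 1786, 648, 1286 and 1251 after CoVa RNAi. Syp was thus at least 17.8-fold lower at 72 hr of experiment 3 than at 72 hr of experiment 2 in the GFP arrays and at least 17.9-fold lower in the CoVa arrays, and most of its rise fell between the last 2 times. In experiment 1 Syp was at 1999 in untransfected cells, at 1876 and 2392 at 48 and 168 hr after GFP RNAi and at 1954 and 1339 after CoVa RNAi.

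Sxl in experiment 3 read 17.2, 44.5, 99.9 and 278 after GFP RNAi and 33.6, 63.7, 119 and 239.8 after CoVa RNAi at the same 4 times. In experiment 2 it read 425, 449, 453 and 462 after GFP RNAi and 414, 424, 537 and 465 after CoVa RNAi. The 2 experiments did not overlap at any time, and Sxl in experiment 3 passed 100 in both conditions only at 168 hr, where it stood at 60.2% (GFP) and 51.6% (CoVa) of experiment 2. The brightest pum probeset in experiment 3 read 237, 444, 1014 and 987 after GFP RNAi and 319, 512, 1052 and 1476 after CoVa RNAi. Its signals in experiment 2 were 856, 998, 1189.7 and 1165 after GFP RNAi and 1015, 1028, 1235 and 1375 after CoVa RNAi. By 120 hr this pum probeset stood at 85.2% of experiment 2 in both conditions, when Syp stood at 9.3% (GFP) and 9.6% (CoVa). The other probesets of these genes were at 48.4% and 42.0% for pum (1639335_at), 43.2% and 61.8% for Sxl (1632915_s_at) and 7.0% and 6.6% for Syp (1640760_at), so that the place of pum and Sxl depended on the probeset.

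chinmo read 106, 232, 280.1 and 894 in experiment 3 after GFP RNAi and 133, 251, 376 and 1073 after CoVa RNAi, against 1151, 1176, 1341 and 1239.9 after GFP RNAi and 1145, 804, 1402 and 1512 after CoVa RNAi in experiment 2. It was below every array of experiment 2 through 120 hr in both conditions. br read 39.9, 91.9, 336 and 495 after GFP RNAi and 71.2, 162, 407 and 459.5 after CoVa RNAi in experiment 3 and 569.6, 557, 678 and 597 after GFP RNAi and 669.6, 517, 931 and 913 after CoVa RNAi in experiment 2. At 72 hr br was at least 5.70-fold (GFP) and 6.70-fold (CoVa) lower than in experiment 2, and Sxl at least 4.25-fold and 4.14-fold. By 120 hr br had reached 49.6% (GFP) and 43.7% (CoVa) of experiment 2, and chinmo 20.9% and 26.8%. The brightest lola probeset read 333, 466, 805 and 1294 after GFP RNAi and 427, 505, 806 and 1126 after CoVa RNAi in experiment 3, and 1198, 1207, 1362 and 1334 after GFP RNAi and 1166, 908, 1127 and 1364 after CoVa RNAi in experiment 2. It was the least reduced of the 8 brightest probesets that started low, at 27.8% of experiment 2 in the GFP array and 36.6% in the CoVa array at 72 hr, close to pum at 27.7% and 31.4%. This place depended on the probeset: lola 1641609_at stood at 7.4% and 11.0%, lola 1624729_at at 45.7% and 46.7%, and pum 1639335_at at 8.4% and 10.5%.

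zfh1 read 194, 481, 1393 and 2065 in experiment 3 after GFP RNAi and 299.9, 566, 1589.8 and 1563 after CoVa RNAi, where the last 2 times lay close together. In experiment 2 it lay at 2503, 2518, 2723 and 2528 and at 2751, 1880.2, 3160.0 and 3184. At 72 hr zfh1 in experiment 3 was at 7.7% (GFP) and 10.9% (CoVa) of experiment 2. ct read 106, 252, 446 and 852 in experiment 3 after GFP RNAi and 123, 222, 316 and 267 after CoVa RNAi, and 1140.0, 984, 1011 and 1015 after GFP RNAi and 1044, 774, 954 and 733 after CoVa RNAi in experiment 2. At 168 hr of experiment 3 ct had returned to 83.9% of experiment 2 in the GFP array but to 36.5% in the CoVa array. The other kept ct probeset, 1637687_at, had returned to 59.0% and 46.1%, a smaller gap.

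**Figure D1:**
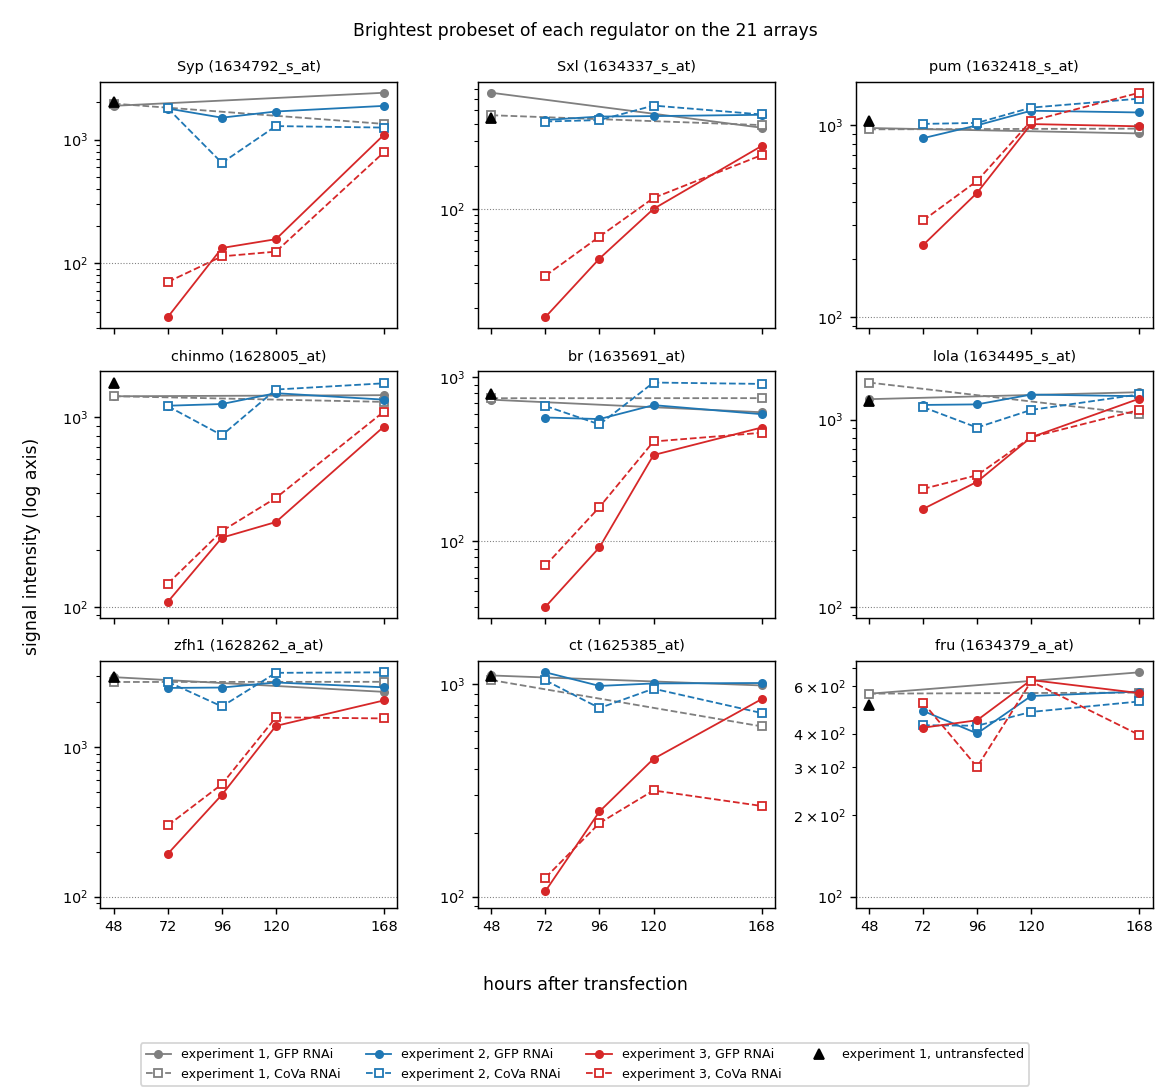
Signal intensity (log axis) of the brightest probeset of each gene against hours after transfection on all 21 arrays, 1 point per array, with filled circles for GFP RNAi, open squares for CoVa RNAi, a triangle for untransfected cells, colour for the experiment and a dotted line at 100. 8 of the 9 panels show experiment 3 (red) starting below experiments 1 and 2 and rising, and the panel of fru does not.

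Among the 30 probesets, 17 were lower by at least 2 on the log2(signal + 32) scale in experiment 3 than in experiment 2 at 72 hr in both conditions, and 25 by at least 1, while 2.7% and 10.5% of all 9858 kept probesets were. The count lower by at least 1 was 18 at 96 hr (3.58% of all), 13 at 120 hr (1.75% of all) and 0 at 168 hr (0.588% of all). None of the 30 was higher by at least 1 at 72 hr (3.97% of all). The median difference over the 30 at 72 hr was -2.58 (GFP) and -2.29 (CoVa), and over all kept probesets -0.05 and -0.02. Since the genes were listed for this, nothing about them follows from these counts. The 5 probesets outside the 25 were 3 of lola (1624729_at, 1630936_at and 1640945_at) and 2 of fru.

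**Figure D2:**
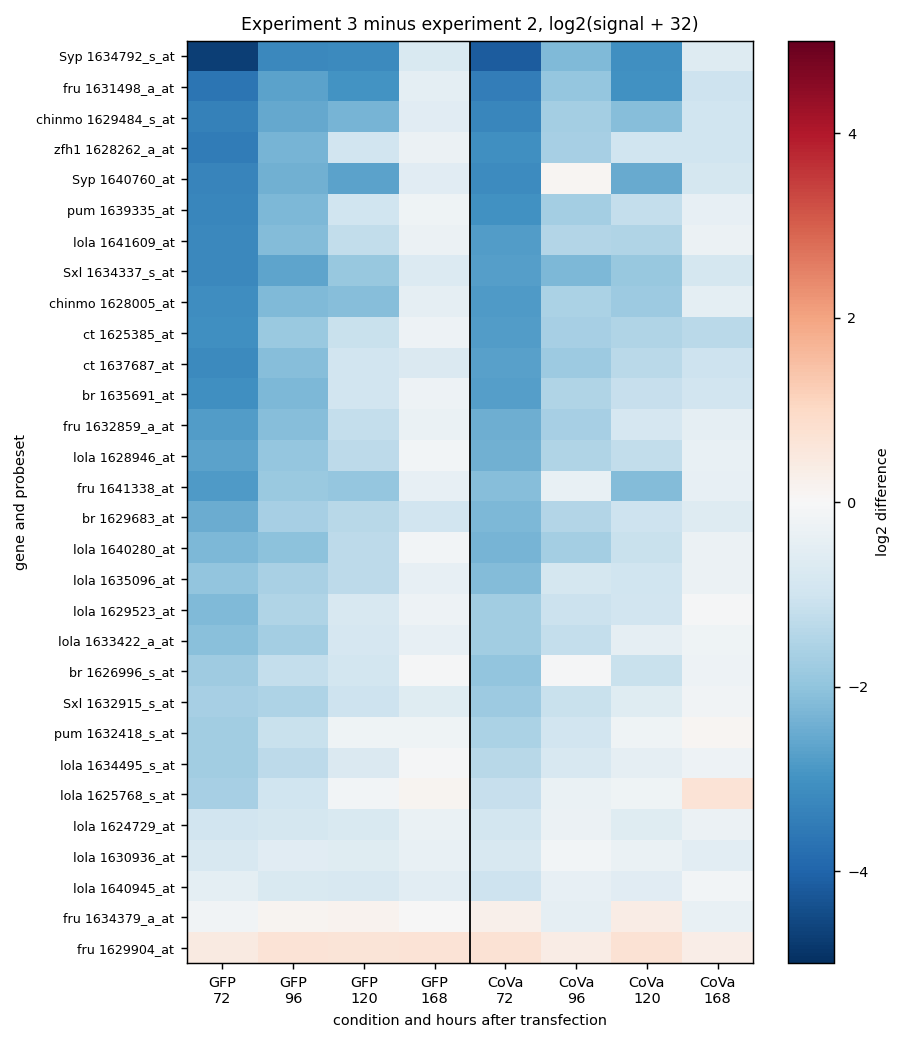
Log2(signal + 32) of experiment 3 minus experiment 2 for each of the 30 kept probesets (rows, ordered by the 72 hr mean) at 4 times in each condition (columns), with blue for lower in experiment 3. The blue fades from 72 to 168 hr, and the last 2 rows, both fru, lie near 0 or above it at 72 hr.

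The probesets of fru split into 2 kinds. Its brightest probeset, 1634379_a_at, was not low at all: in experiment 3 it read 420.4, 448, 631 and 564 after GFP RNAi and 520.3, 301, 623 and 395 after CoVa RNAi, and in experiment 2 485, 400.4, 550.4 and 572 after GFP RNAi and 429, 427, 481 and 525 after CoVa RNAi. Probeset 1629904_at was higher in experiment 3, at 488, 502, 507 and 507 after GFP RNAi and 499.6, 432, 482 and 352 after CoVa RNAi, than in experiment 2, at 345, 299, 312 and 304 after GFP RNAi and 287, 330.0, 277 and 269.6 after CoVa RNAi, with no overlap between the experiments. The other 3 probesets started low and rose like the other genes. Probeset 1632859_a_at rose in experiment 3 through 19.4, 52.1, 157 and 286 after GFP RNAi and 42.1, 80.3, 192 and 254 after CoVa RNAi, and lay between 325 and 401 in experiment 2. Probeset 1631498_a_at read 11.1, 23.4, 19.9 and 258 after GFP RNAi and 9.6, 12.9, 17.6 and 159 after CoVa RNAi in experiment 3, and probeset 1641338_at 9.83, 26.8, 30.7 and 157 after GFP RNAi and 20.2, 21.8, 11.6 and 72.3 after CoVa RNAi. Both stayed under 100 through 120 hr in each condition, and 1641338_at was still under 100 at 168 hr after CoVa RNAi. The lowest reading, 9.60, is the floor of the table. The probesets of fru may report different transcripts, which the array annotation used here does not tell apart. The 2 of the 5 kept probesets that differed from the other genes had not started low.

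**Figure D3:**
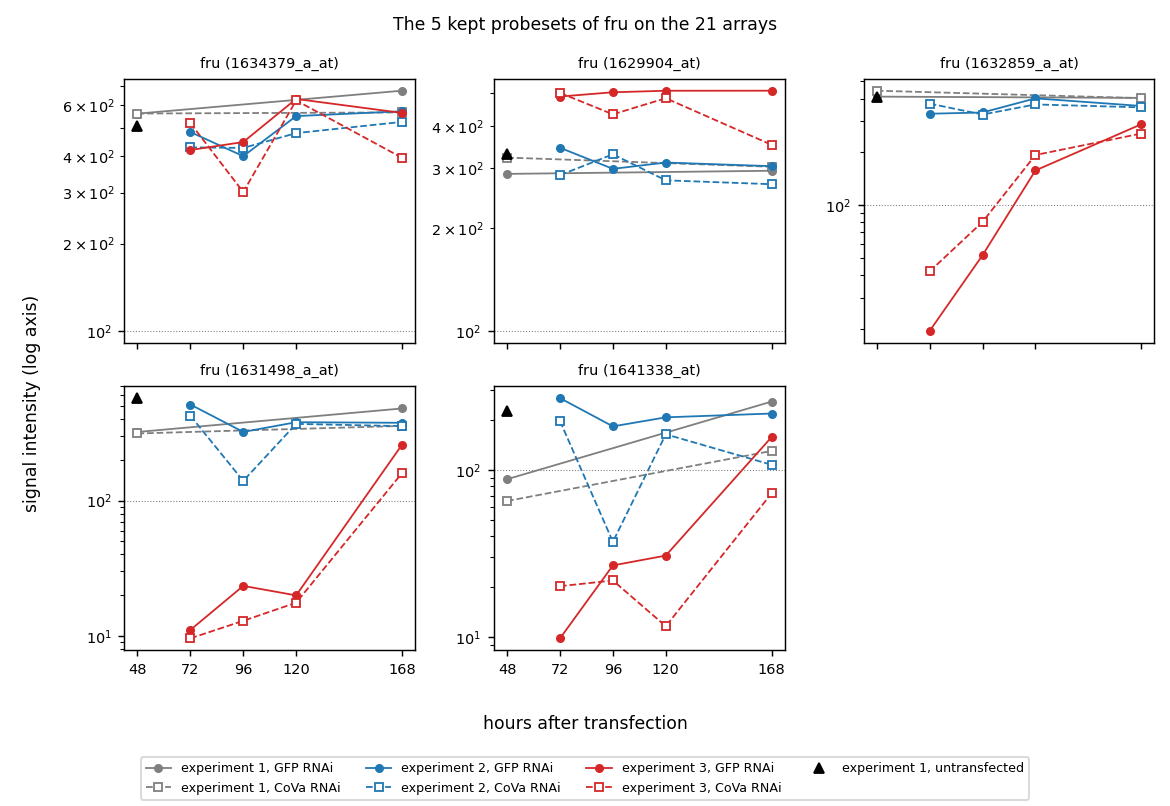
Signal intensity (log axis) of the 5 kept fru probesets against hours after transfection on the 21 arrays, with symbols, colours and the dotted line at 100 as in the plot of the 9 genes. 2 probesets stay between 301 and 673 or 270 and 507 on the RNAi arrays, and 3 start below 50 in experiment 3 and rise.

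The regulators neared their own 168 hr signal at different times in experiment 3. Taking the signal at 120 hr as a share of that at 168 hr, pum (1632418_s_at) stood at 103% after GFP RNAi and 71.3% after CoVa RNAi, ct (1637687_at) at 86.4% and 113%, zfh1 at 67.5% and 102%, and br (1635691_at) at 67.9% and 88.5%. The brightest lola probeset followed at 62.2% and 71.6%, Sxl (1634337_s_at) at 35.9% and 49.8% and chinmo (1628005_at) at 31.3% and 35.0%. Syp (1634792_s_at) was at 14.3% and 15.7%, and 2 fru probesets were as late, at 7.7% and 11.1% (1631498_a_at) and 19.6% and 16.1% (1641338_at). The brightest probesets of Sxl, chinmo and Syp were thus under 50% in both conditions, while those of pum, zfh1, br, lola and ct (52.3% and 118%) were above it in both. The other kept Sxl probeset, 1632915_s_at, was at 63.1% and 68.1%, above that line, and the other one of chinmo (27.3% and 38.3%) and of Syp (10.2% and 17.8%) below it. Other probesets of br and lola ranged from 36.7% to 102%, and with 1 array per time the order has no replicate check. A high share is not a return to the level of experiment 2. At 168 hr after CoVa RNAi, zfh1 stood at 49.1% of experiment 2, ct 1625385_at at 36.5% and ct 1637687_at at 46.1%.

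Experiment 2, which the listing did not use for its course, was the test of whether these genes change with time after transfection. A straight line of log2(signal + 32) against hours, with 1 intercept per condition, was fitted in limma over its 8 arrays. None of the 30 probesets changed at an adjusted p under 0.05 (background 0.0% of all kept probesets in either direction), and 3 of the 30 and 1431 of the 9858 had an unadjusted p under 0.05. With no call among all kept probesets, the lack of calls does not show that the 30 were constant. The slopes of the 30 ran from -0.08 to 0.11 per 24 hr with a median of 0.02, against a median of 0.01 over all. The slope of zfh1 (1628262_a_at) was 0.06 per 24 hr (95% interval -0.06 to 0.17) and that of chinmo (1628005_at) 0.09 (-0.03 to 0.21). The largest was that of pum (1632418_s_at), at 0.11 (0.05 to 0.18, limma adjusted p = 0.201), while the other pum probeset, 1639335_at, had a slope of -0.04. In experiment 3 the same line gave, as a description, 0.69 for zfh1, 0.67 for chinmo, 0.51 for pum and 0.86 for Syp (1634792_s_at). The genes were listed for this rise, so the slopes of experiment 3 are not set against those of experiment 2.

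1 array of experiment 2, CoVa RNAi at 96 hr, read low for many of the 30 probesets. It was the lowest of the 8 arrays of experiment 2 for 22 of the 30 and for 16.5% of all kept probesets. Of the 30, Syp 1640760_at fell furthest: it read 378, 24.02, 242 and 189 at the 4 times after CoVa RNAi and 421, 234, 313 and 337 after GFP RNAi, and Syp 1634792_s_at dropped to 648 on that array. fru 1641338_at read 196, 37.1, 163 and 107 after CoVa RNAi, fru 1631498_a_at 424, 139.8, 369 and 355, and br 1626996_s_at 165, 32.5, 149.7 and 112. These 5 probesets were lower by at least 1 on the log2(signal + 32) scale than the mean of 72 and 120 hr (0.538% of all kept probesets were), and on the GFP array at 96 hr 0 of the 30 were (0.0811% of all). This array was singled out after its values were seen, and with 1 array there is no test.

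Probesets that dipped more on that array tended to come back later in experiment 3, a relation noticed after the values were seen and given with no test. Over the 25 probesets lower by at least 1 at 72 hr of experiment 3, the rise from 120 to 168 hr of experiment 3 (mean of both conditions) and the dip on the CoVa array of experiment 2 correlated at a Pearson r of -0.62. Over all 1034 kept probesets with the same drop at 72 hr, r was -0.25. The same rise set against the 96 hr GFP array of experiment 2 gave -0.55 over the 25 and -0.06 over the 1034. Transfected cells at 48 hr of experiment 1 gave another contrast: set against the untransfected array, 2 of the 30 (0.345% of all) were lower by at least 1, again Syp 1640760_at (254 and 178 against 478) and fru 1641338_at (87.9 and 65.1 against 224), and r with the late rise was -0.40 over the 25 and -0.01 over the 1034. The points are probesets, not replicates, several share a gene, and each axis rests on 1 to 4 arrays.

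**Figure D4:**
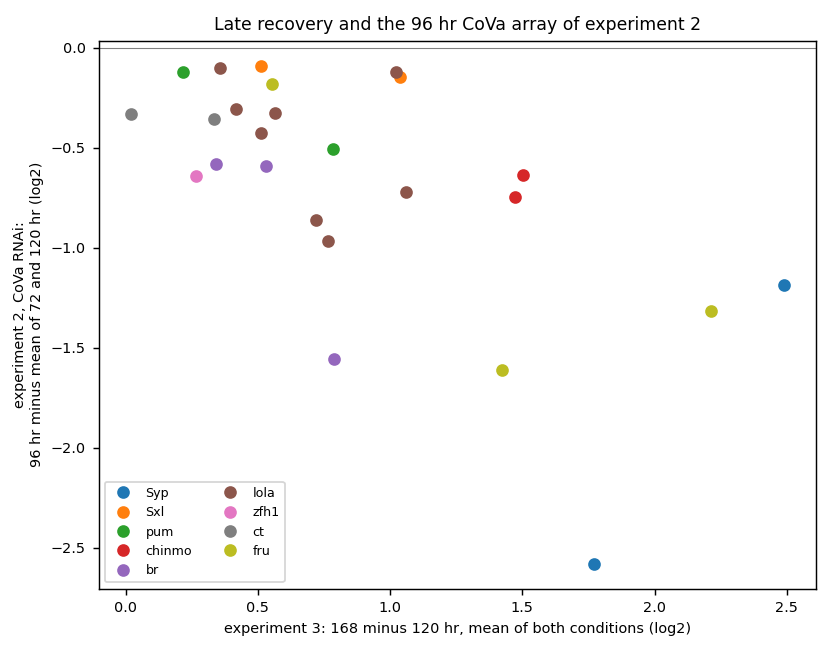
Each point is 1 of the 25 probesets lower by at least 1 in experiment 3 at 72 hr, coloured by gene, with the rise from 120 to 168 hr of experiment 3 on the x axis and the 96 hr CoVa array of experiment 2 minus the mean of 72 and 120 hr on the y axis, both on the log2(signal + 32) scale. Both Syp and 2 fru probesets lie at the lower right, and both ct probesets and zfh1 at the left.

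CoVa RNAi was compared with GFP RNAi, a difference the listing did not use. Over all times, none of the 30 probesets differed in limma without a block for the pairs (background 17.8%). 0 of the 30 and 2891 of the 9858 kept probesets had an unadjusted p under 0.05. In this fit the drop of experiment 3, for which the genes were listed, counted as spread between arrays (SE 0.406 for lola 1640280_at). The lack of calls thus does not show that CoVa RNAi left the 30 unchanged. Leaving out experiment 3, which started low, gave 3 lower (background 4.43% lower): lola 1625768_s_at (-0.53), lola 1629523_at (-0.39) and ct 1637687_at (-0.43). With the arrays paired by experiment and time as a block, 11 of the 30 differed (background 41.7%), 4 higher and 7 lower after CoVa RNAi (25.8% and 15.9% of all kept probesets), a share of calls below that of all kept probesets. The median difference of the 30 was -0.09 and that of all kept probesets 0.04.

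The 4 that rose were 2 of br, 1 of lola and 1 of pum. lola 1640280_at was higher after CoVa RNAi in 10 of 10 pairs, with a log2 difference of 0.29 (SE 0.054, paired limma adjusted p = 0.00166), from 511 ± 254 (SD, n = 10) after GFP RNAi to 611 ± 275 after CoVa RNAi. br 1635691_at (0.28, SE 0.080, adjusted p = 0.0166) and br 1629683_at (0.22, SE 0.073, adjusted p = 0.0331) were each higher in 8 of 10 pairs, and pum 1632418_s_at (0.18, SE 0.058, adjusted p = 0.0255) in 9 of 10. The 7 that fell were both kept probesets of ct, 2 of lola, 2 of fru and 1 of Syp. ct 1637687_at differed by -0.45 (SE 0.099, adjusted p = 0.00395) and ct 1625385_at by -0.37 (SE 0.134, adjusted p = 0.0439), both lower in 9 of 10 pairs. For fru, 1641338_at was lower in 9 of 10 pairs, with a difference of -0.55 (SE 0.147, adjusted p = 0.0115), and 1631498_a_at in 10 of 10, with one of -0.29 (SE 0.094, adjusted p = 0.029). The mean of fru 1641338_at after CoVa RNAi, 82.4, was near background. Syp 1640760_at differed by -0.56 (SE 0.197, adjusted p = 0.0392) and was lower in 8 of 10 pairs. The difference was -0.37 (adjusted p = 0.0344) without the 96 hr pair of experiment 2, whose CoVa array read 24.02. The other Syp probeset, with -0.32 (95% interval -0.62 to -0.02, adjusted p = 0.0773), missed the threshold, as did zfh1 (0.10, -0.10 to 0.29), chinmo 1628005_at (0.07, -0.10 to 0.24) and Sxl 1634337_s_at (0.04, -0.13 to 0.22). Without that pair the paired fit again called 11 (background 39.7%), 5 higher and 6 lower (24.3% and 15.4% of all), with lola 1628946_at gained and ct 1625385_at lost (adjusted p = 0.0662). Without experiment 3, the paired fit called 6 of the 30 (background 19.7%, with 12.4% higher and 7.28% lower): lola 1640280_at higher, and lola 1625768_s_at, 1629523_at and 1630936_at, ct 1637687_at and fru 1641338_at lower.

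Probesets of 1 gene moved in opposite directions. lola 1625768_s_at (-0.40, SE 0.083, adjusted p = 0.00321) and lola 1629523_at (-0.31, SE 0.063, adjusted p = 0.00245) were each lower after CoVa RNAi in 9 of 10 pairs, opposite to lola 1640280_at. In experiment 2, 1625768_s_at read 518, 460.4, 463 and 485 after GFP RNAi and 376, 279, 330.0 and 245 after CoVa RNAi, so that the 2 conditions did not overlap, and 1640280_at read 516, 620.1, 719 and 710.1 after GFP RNAi and 729, 719.6, 845 and 891 after CoVa RNAi. lola is known for many alternative 3′ ends that give proteins with different zinc fingers, and the annotation used here does not say which transcripts each probeset reads. The 2 pum probesets also differed in sign: 1632418_s_at rose as given, and 1639335_at was lower in 8 of 10 pairs, with a difference of -0.21 that missed the threshold (SE 0.086, adjusted p = 0.0755). The difference between probesets of a gene was not itself tested.

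**Figure D5:**
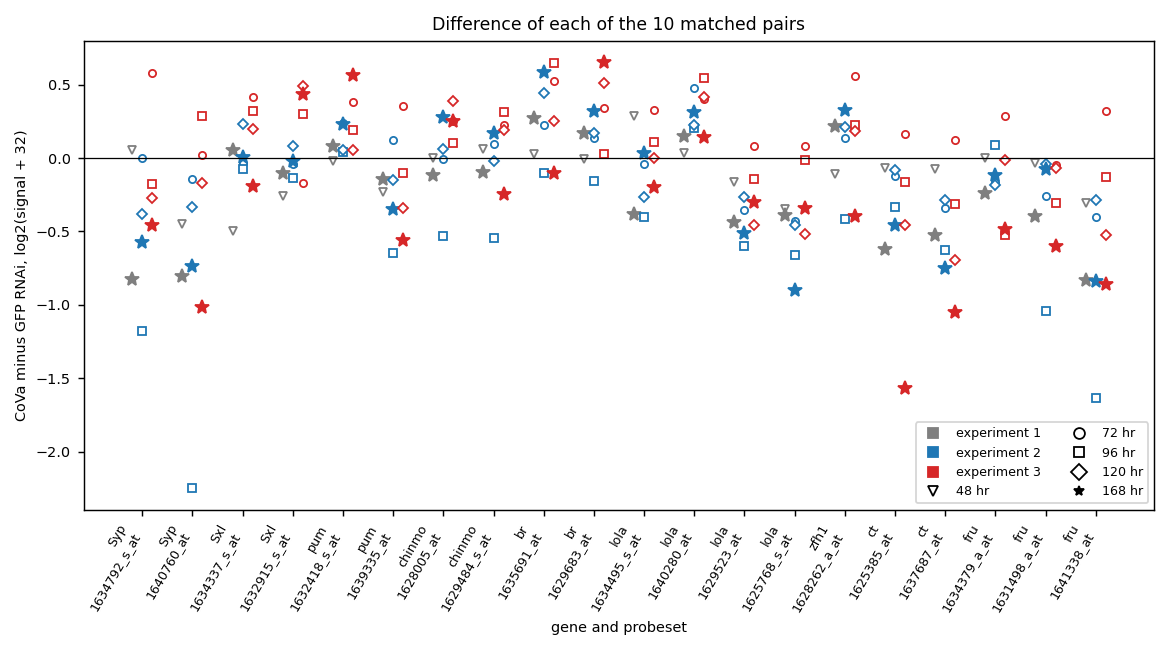
Log2(signal + 32) after CoVa RNAi minus that after GFP RNAi for each of the 10 matched pairs (1 symbol per pair, colour for the experiment, shape for the time, stars for 168 hr), for the 11 probesets called in the paired fit, the brightest of each gene and every kept one of genes with at most 2. The 3 stars lie below 0 for each Syp, ct and fru probeset shown, and the 10 symbols of lola 1640280_at lie above 0.

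Counts of higher and lower probesets were also taken pair by pair. At 72 hr of experiment 3, 24 of the 30 probesets were higher after CoVa RNAi (median 0.27, with 61.4% of all kept probesets higher), and 18 were at 96 hr (55.0% of all), 17 at 120 hr (51.0% of all) and 7 at 168 hr (median -0.26, 53.9% of all). In experiment 2 the number higher was 14 at 72 hr (47.2% of all), 4 at 96 hr (59.0% of all), 11 at 120 hr (56.8% of all) and 11 at 168 hr (56.9% of all). In experiment 1 it was 12 at 48 hr (49.6% of all) and 10 at 168 hr (55.5% of all). Each of these counts rests on 1 pair, the probesets share arrays, and no test is given.

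168 hr was the only time shared by all 3 experiments. None of the 30 differed there in the fit over all 20 arrays (limma, background 16.6%). 0 of the 30 and 2739 of the 9858 kept probesets had an unadjusted p under 0.05. The drop of experiment 3 counted as spread in this fit too (SE 1.47 for Syp 1634792_s_at), so the lack of calls says little. On the 6 arrays at that time alone 1 was lower, fru 1641338_at (background 7.66% lower). Fitted on the 3 pairs at 168 hr alone, a choice made after the data were seen, 9 of the 30 were lower after CoVa RNAi and 0 higher (16.1% and 23.8% of all kept probesets). All 3 pairs were lower for each of the 9. fru 1641338_at read 256, 217 and 157 in experiments 1, 2 and 3 after GFP RNAi and 129.8, 107 and 72.3 after CoVa RNAi, a difference of -0.84 (SE 0.066, adjusted p = 0.00265). The conditions did not overlap for this probeset. Syp 1634792_s_at read 2392, 1874 and 1093 after GFP RNAi and 1339, 1251 and 790.0 after CoVa RNAi (-0.62, SE 0.096, adjusted p = 0.00985), and Syp 1640760_at differed by -0.85 (SE 0.085, adjusted p = 0.0039). For Syp 1634792_s_at the conditions overlapped, because the GFP array of experiment 3 lay below the CoVa arrays of the other two. ct 1637687_at differed by -0.77 (SE 0.118, adjusted p = 0.00941) and ct 1625385_at by -0.88 (SE 0.229, adjusted p = 0.0362). The remaining 4 were lola 1629523_at (-0.42), 1625768_s_at (-0.54) and 1624729_at (-0.26) and pum 1639335_at (-0.35). With the experiment as a block in the fit over all 20 arrays 0 of the 30 passed (background 33.3%), and without experiment 3 that fit called 6 lower (background 9.64% lower), both probesets of Syp and of ct, lola 1625768_s_at and fru 1641338_at.

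The CoVa effect on ct changed with time in a fit over all 3 experiments, but did not pass the threshold once experiment 3 was left out. A line through the 10 pair differences against hours called 2 of the 30 (background 23.1%, with 11.4% lower), both of ct: the difference moved by -0.19 per 24 hr for 1625385_at (SE 0.056, limma adjusted p = 0.0306) and by -0.15 for 1637687_at (SE 0.039, adjusted p = 0.0199). ct 1625385_at fell after CoVa RNAi from 1048 at 48 hr to 634 at 168 hr in experiment 1, where the GFP arrays read 1102 and 989. Without experiment 3 neither passed, at -0.09 for both (limma adjusted p = 0.106 and 0.151; background 11.4%). Without the 96 hr pair of experiment 2, left out after its values were seen, the count was 5 of the 30 lower (background 11.9% lower), with Syp 1634792_s_at, fru 1641338_at and lola 1624729_at added to the ct probesets.

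Genes around the 9 were read from 7 lists, by the brightest probeset of each gene, beside 11.3% of all kept probesets higher and 6.47% lower. In the unpaired comparison over all times, 1 of 9 measured genes of the ecdysone cascade was called, Hr78, a nuclear receptor, higher by 0.25 (SE 0.061, limma adjusted p = 0.00797), from 1077 ± 97.0 (SD, n = 10) to 1282 ± 114. Of 12 genes of sex determination and dosage compensation, dsx, the transcription factor that ends the sex determination cascade, was lower by 0.57 (log2 difference -0.571, SE 0.157, adjusted p = 0.0151), from 222 ± 48.5 to 142 ± 43.7. Of 7 partners of pum and other repressors of translation, cpo, an RNA-binding protein, was higher by 0.43 (SE 0.147, adjusted p = 0.0463), though at a mean of 80.3 and then 119.5 it was near background. Of 5 haemocyte transcription factors, kn, a factor of the COE family, was lower (-0.454, SE 0.146, adjusted p = 0.0355), from 274 ± 66.4 to 194 ± 58.5. None of 8 other BTB regulators, 9 temporal RNA regulators or 5 Notch pathway genes passed. With the pairs as a block, where 25.8% of all kept probesets were higher and 15.9% lower, the counts higher and lower were 2 and 2 (ecdysone), 0 and 4 (sex determination), 3 and 2 (pum partners), 0 and 1 (haemocyte), 0 and 3 (BTB), 1 and 1 (temporal) and 0 and 2 (Notch). Over the same lists the median differences of the unpaired fit lay between -0.12 and 0.10, beside 0.04 over all kept probesets.

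The early drop of experiment 3 reached beyond the 9 genes in these lists. Lower by at least 1 at 72 hr in both conditions were 5 of 8 BTB regulators, 5 of 9 genes of the ecdysone cascade, 5 of 9 temporal RNA regulators, 4 of 7 pum partners, 4 of 5 Notch pathway genes, 2 of 5 haemocyte factors and 1 of 12 genes of sex determination, beside the 10.5% of all given above. Imp, EcR, usp and tra2 are named here after their values were seen. Imp, the counterpart of Syp, read 1775 (GFP) and 1856 (CoVa) at 72 hr of experiment 2 and 182 and 308 in experiment 3. EcR, the ecdysone receptor that acts upstream of br, read 234 and 214 in experiment 2 and 39.4 and 23.1 in experiment 3. Its partner usp did not show the drop, at 999 and 996 against 922 and 975, and neither did tra2, at 1675 and 1762 against 1616 and 1752.

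The named genes most like the 8 recovering regulators were found by the correlation, over 20 arrays, with the mean of their standardized log2 signals. They were heca (r = 0.996), ps (0.993), CG32264 (0.993), crp (0.991) and CG9932 (0.991). heca read 111 (GFP) and 189 (CoVa) at 72 hr of experiment 3 and 1301 and 1082 at 168 hr. ps, an RNA-binding splicing regulator, read 478 and 797 and then 3979 and 4016. Without experiment 3, over 12 arrays, the 5 correlations were 0.83, 0.71, 0.52, 0.61 and 0.58. Among the regulators themselves, the correlation with that mean ran from 0.89 (pum) to 0.99 (zfh1), the mean including the gene itself, and was 0.34 for the brightest fru probeset. Since the genes were listed for a shared course in experiment 3, and fru as the exception, nothing about them follows from these values.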

How the data were processed

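The deposited table holds linear signal intensity values. Per the study's methods, the arrays were read with the Gene Chip Operating System, and the authors used dChip to bring all of them to the level of the one whose intensity was the median; the labels also name MAS5. The values end at a floor of 9.60, so folds against weak signals are understated, and no genome build is given in the sources used here. 183 control probesets were left out, and the rest were not normalized again. Probesets were named by GEO's platform annotation (13646 with 1 gene, 402 with several, 4721 with none).

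Probesets with a signal of at least 100 on at least 3 of the 20 RNAi arrays (9858) were tested on log2(signal + 32) with limma 3.58.1 in R 4.3.3, with Benjamini-Hochberg adjustment over all of them at 0.05, two-sided. The value 32 added before the log shrinks differences of low probesets. The 4 comparisons were CoVa against GFP over all times, the same at 168 hr, the change with time in experiment 2, and the change of the CoVa effect with time. The fitting code was tested on simulated data with known changes. Tables and plots were made with Python 3.11.15.

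GFP and CoVa arrays of the same experiment and time deviated together from the mean of their condition and time (correlations of 0.58 to 0.96), so the fit with the pairs as a block is given beside the unpaired one. For 72, 96 and 120 hr, where a mean rests on 2 experiments, both experiments give the same correlation. The study's methods give 3 independent time courses, and the times within 1 course are not separate experiments. Fits over several times treated arrays or pairs as separate units, so their p-values do not measure the spread between the 3 courses. The untransfected array entered no test.

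The genes, the lists and the tests were chosen with earlier results of these data known. The text names every kept probeset of the 9 genes that a result turns on, up to 3 genes of each list with the largest change past the threshold over all times, and the 5 genes most like the 8 recovering regulators. The brightest probeset stands for a gene where 1 is given. The alternatives were another normalization (quantile), 16 or 100 added before the log, no filter, blocks, other tests, and arrays or experiments left out.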

Additional observations from a re-analysis of the deposited data

Results flagged for a closer look

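The CoVa effect on ct differed between times by the test of that difference over all 3 experiments, but did not pass once experiment 3 was left out. The slope of the 10 pair differences was -0.19 per 24 hr for ct 1625385_at and -0.15 for ct 1637687_at on the log2(signal + 32) scale, with limma adjusted p of 0.0306 and 0.0199. Over 10 alternatives the adjusted p ran from 0.0189 to 0.106 and from 0.0122 to 0.151, and the highest in each case was without experiment 3. On the scan of single arrays that stand far from the rest of their condition, 0 of 18 groups (9 genes in 2 conditions) had such an array. Where several early arrays of experiment 3 were low together, this scan could miss a single low array.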

How the results depend on the processing

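The 4 comparisons were run under 16, 10, 9 and 10 alternatives, 6 of them chosen after seeing the data (the settings without the 96 hr pair of experiment 2 or its CoVa array, with the pairs as a block without experiment 3 or without that pair, and on the 3 pairs at 168 hr). For CoVa against GFP over all times, the count of the 30 probesets was 0 higher and 0 lower. With the pairs as a block it became 4 higher and 7 lower (25.8% and 15.9% of all kept probesets). That block without experiment 3 gave 1 higher and 5 lower (12.4% and 7.28%). Without the 96 hr pair of experiment 2 the block gave 5 higher and 6 lower (24.3% and 15.4%). Leaving out the 72 and 96 hr arrays of experiment 3, unpaired, gave 0 higher and 1 lower (12.8% and 8.8%). With 1 experiment left out, 0 to 3 were lower (0.984% to 4.53%). Over the 16 alternatives the adjusted p of lola 1640280_at ran from 0.00166 to 0.946 and that of ct 1625385_at from 0.0439 to 0.989. At 168 hr the count was 0, and 1 lower on the 6 arrays at that time alone (7.66% of all lower). It was 9 lower on the 3 pairs alone (16.1%) and 0 to 6 lower with 1 experiment left out (0.0% to 9.64%). For the change of the CoVa effect with time, the 2 lower (11.4% of all) became 0 without a filter (3.67%). They became 1 without the 48 hr pair (10.1%) and 5 without the 96 hr pair of experiment 2 (11.9%). With 1 experiment left out, 0 to 1 were lower (2.53% to 8.90%). No probeset of the 30 was called for a change with time in experiment 2 under any alternative run. The described median difference between experiments 3 and 2 at 72 hr, -2.43 over both conditions, was -2.69 with 16 and -1.75 with 100 added before the log.

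Over all kept probesets the unpaired count was 1754 (1116 higher, 638 lower). It was 1525 after quantile normalization (794 and 731), 4110 with the pairs as a block (3913 without the 96 hr pair of experiment 2), 2699 with the experiment as a block, 326 without 168 hr and 348 without experiment 2. At 168 hr, 1634 became 3286 with the experiment as a block, 3929 on the 3 pairs, 2499 without experiment 3, 961 without experiment 1 and 0 without experiment 2 (limma; 1736 at an unadjusted p under 0.05). For the change of the effect with time, 2279 became 1488 without a filter, 583 without experiment 2 and 1123 without experiment 3. For the change with time in experiment 2, 0 became 83 on the CoVa arrays alone and 3 with 100 added.

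Directions turned under at least 1 alternative for 5 of the 30 probesets over all times, 4 at 168 hr, 14 for the change with time in experiment 2 and 8 for the effect with time. None of these values was past the threshold, and none was larger than 0.10 before it turned. The brightest probesets among them follow. Over all times, chinmo (0.07) was -0.05 without experiment 3, paired or not, and 0.15 without experiment 2. Sxl (0.04) was -0.05 in the methods' t-test, -0.04 without the early arrays of experiment 3 and -0.05 without experiment 3, paired or not, and 0.11 without experiment 1, and lola (-0.05) was 0.03 without experiment 2 and -0.13 without experiment 3. At 168 hr, zfh1 (0.05) was -0.03 without experiment 1 and -0.09 without experiment 2 and 0.28 without experiment 3, and Sxl (-0.04) was 0.03 without experiment 3. In the time course of experiment 2, Syp (0.01) was -0.02 on the CoVa arrays alone, -0.14 without 168 hr and -0.04 without the CoVa array at 96 hr. For the effect with time, zfh1 (-0.01) was 0.08 without experiment 3, br (0.01) was -0.02 without the 48 hr pair, -0.03 without experiment 1 and -0.04 without experiment 2, and Sxl (0.01) was -0.01 after quantile normalization, -0.06 without the 48 hr pair and -0.07 without experiment 1. The cause of these changes was not tested. Signals near background limit the 72 hr values of experiment 3.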
